A study of Mus musculus with 3 samples.

Results

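The mouse genes whose symbols are Zfp followed by exactly 3 digits (zinc finger protein genes numbered in order of description, not by relationship) were taken from the RNA-seq table of a C2C12 time course. The rule found 286 of 23298 gene symbols, on 289 rows. The rule itself uses no measured value. C2C12 is an established mouse myoblast line; the series title names it C2C12-hN1∆ECD, that is, cells with human NOTCH1 lacking its extracellular domain, a form that still needs gamma-secretase cleavage to signal. Cells were grown in DMEM with 20% FBS. Per the labels, the culture was in 10 uM DAPT, a gamma-secretase inhibitor, and the inhibitor was removed for 1 h or for 6 h in the washout groups. The remaining library, the control, is labelled as having no treatment, and the labels do not say whether its cells were still in DAPT. No label says whether the line is 1 clone or which promoter drives the transgene. Each group was 1 polyA library, so no difference below has a replicate check, and time after washout cannot be told apart from any other way in which 2 libraries differ.

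Most of these genes encode C2H2 zinc finger proteins, in which each finger folds around a zinc ion and a tandem array of fingers reads DNA, RNA or another protein. A large group also carries a KRAB box, which recruits the corepressor Trim28 (KAP1) and through it Setdb1, a histone H3 lysine 9 methyltransferase, and many KRAB genes lie in tandem clusters and keep transposable elements silent. Others carry a SCAN or a BTB domain, through which such proteins dimerise, and some that share only the name act in RNA handling, on ribosomes or on the spindle.

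The libraries held about 23000000, 20400000 and 20800000 fragments in the control, 1 h and 6 h samples, derived from the spacing of low values and therefore approximate; 3 fragments on a 1 kb transcript correspond to 0.130, 0.147 and 0.145 FPKM (fragments scaled to transcript length and library size). Hes1, a direct NOTCH target, stood at 22.5 FPKM in control cells, 254 at 1 h and 44.8 after 6 h. Of 7 myoblast markers, Des (62.2 to 73.3 FPKM), Itga7, Cdh15, Vcam1 and Myf5 were present, while Myod1 was at or below 0.295 FPKM and Pax7 at or below 0.0109 FPKM in every library, although both are defining genes of the lineage. The summed myoblast list was 167, 216 and 234 FPKM, and the summed differentiated muscle list, nearly all of it Acta1, was 34.1, 36.2 and 29.7 FPKM. Markers of leukocytes (Ptprc) and neurons (Rbfox3) were listed at 0, and those of fibroblasts summed to at most 1.67 FPKM.

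The numbered Zfp genes were present at low levels. Their median level, as a mean over the 3 libraries, was 2.20 FPKM, against 0.233 FPKM for all symbols in the table. In total, 188 of 286 (65.7%) had a mean of at least 1 FPKM, the minimum used for every comparison, against 44.9% of all symbols. The highest gene below that minimum was at 0.973 FPKM and the lowest above it, Zfp235, at 1.01. Of the 98 genes below it, 23 were listed at 0 in every library. Of all 286, 108 lay between 1 and 5 FPKM, 54 between 5 and 10, 15 between 10 and 20, and 11 above 20. Summed over all members the family made up 0.235% (control), 0.208% (1 h) and 0.235% (6 h) of the total FPKM.

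The highest levels belonged mainly to genes whose proteins do not work as long DNA-binding finger arrays. Zfp207 (BuGZ), a microtubule and kinetochore protein with 2 fingers, led the family with 108, 79.0 and 101 FPKM in the control, 1 h and 6 h samples. Zfp706, with 1 finger, followed at 41.0, 38.9 and 44.8 FPKM. Zfp622, whose yeast relative acts in maturation of the large ribosomal subunit, was at 32.0, 33.7 and 33.6 FPKM. These 3 genes differed from the control by less than 1.5-fold in both washout libraries. Zfp598, the ubiquitin ligase that marks collided ribosomes, was at 31.7, 27.1 and 32.0 FPKM. Zfp106, an RNA-binding protein needed by motor neurons and muscle, was at 30.8, 26.5 and 30.2 FPKM. Zfp703, a corepressor of the NET family, was the exception among the leaders, at 16.1, 40.1 and 41.3 FPKM, and is described below. The other high genes were Zfp664, Zfp330, Zfp146, Zfp365, Zfp384 and Zfp259, with means from 19.8 to 26.5 FPKM.

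Levels differed between protein classes. Classes were assigned from proteins translated from GENCODE vM21 transcripts, which gave a model for 281 of the 286 genes; fingers were counted as matches of the C2H2 spacing, and the count ran from 0 to 37 with a median of 10. The 143 KRAB genes had a median level of 1.25 FPKM, and 80 of them (55.9%) reached the minimum. The 113 genes with fingers and no further domain had a median of 5.19 FPKM, and 91 of them (80.5%) reached it. The 5 genes with KRAB and SCAN boxes had a median of 3.37 FPKM, and the 8 with SCAN alone 2.82 FPKM. Zfp651 was 1 of only 2 BTB genes and had a mean of 5.21 FPKM, while the other, Zfp131, was listed at 0 on both of its rows, which lie on a random contig of chromosome 13. The 10 genes with neither a match of the finger pattern nor a KRAB, SCAN or BTB domain split into 5 high ones, Zfp703, Zfp330, Zfp365, Zfp259 and Zfp503, with means from 14.2 to 32.5 FPKM, and 5 below the minimum, among them Zfp750 and Zfp185. No KRAB gene without a SCAN box reached a mean of 10 FPKM; the highest was at 9.69. Across 186 genes above the minimum, above 0 everywhere and with a protein model, the number of fingers and the mean level had a Spearman correlation of -0.40, a description across genes that share 3 libraries.

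**Figure D1:**
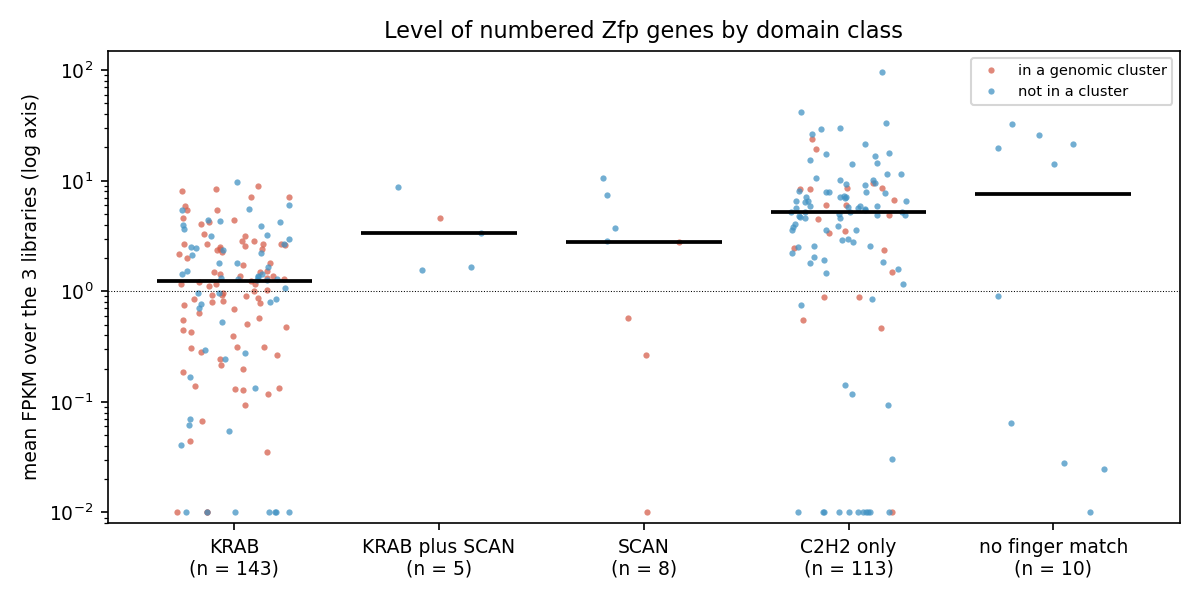
Mean FPKM over the 3 libraries (log axis) for numbered Zfp genes by domain class, 1 point per gene, with genes in and outside genomic clusters in different colours, class medians as black bars and the 1 FPKM minimum dotted; values under 0.01 are drawn at 0.01. The KRAB median of 1.25 FPKM lies below the 5.19 FPKM of genes with fingers alone, and most clustered genes are KRAB genes.

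At 1 h after washout most of the family was lower than in the control. Differences were taken as log2(FPKM + 1), which understates the change of low genes, and 1.5-fold on that scale was the threshold. In bulk RNA, fewer cells with a transcript and less of it per cell cannot be told apart. Of the 188 genes, 21 were at least 1.5-fold lower (11.2%, against 3.50% of all 10464 genes above the minimum) and 1, Zfp703, was at least 1.5-fold higher (0.532%, against 3.04%). The median difference was -0.25 on the log2 scale for the family and -0.03 for all genes, and 80.3% of the family lay below 0, against 54.5% of all genes. In all 21 the deposited 95% bounds of the 2 libraries were apart, which held with the same fold for 3.15% of all genes. Those bounds cover estimation within a library only. At 2-fold, 2 genes were lower (0.831% of all genes) and 1 was higher (1.31%). The count depends strongly on the pseudocount: it is 47 (25.0%, against 5.42% of all genes) with 0.1 FPKM in place of 1. With 5 FPKM it is 0, below the 1.31% of all genes, while the median difference is still below 0, at -0.13, with 5 FPKM.

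**Figure D2:**
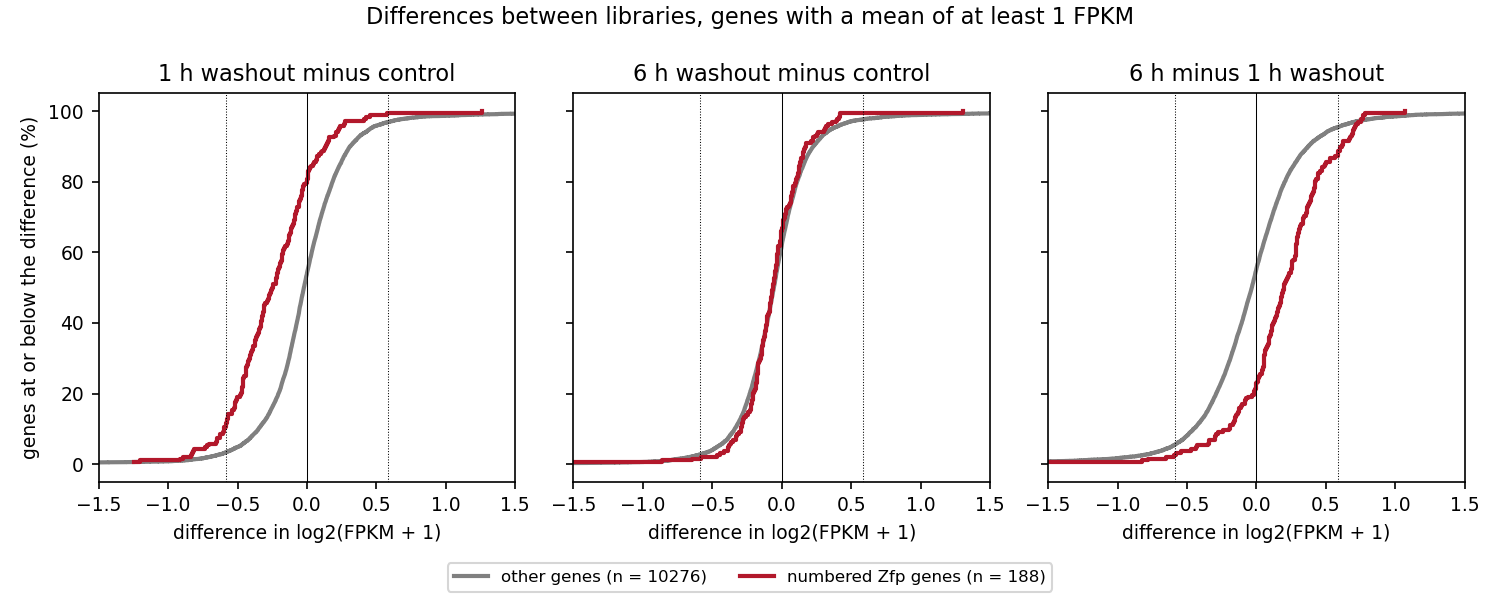
Cumulative share of genes (%) at or below each difference in log2(FPKM + 1), for 188 numbered Zfp genes and the 10276 other genes above the 1 FPKM minimum, in each pair of libraries; dotted lines mark 1.5-fold. The family lies to the left of the other genes at 1 h against the control (median -0.25), close to them at 6 h against the control (-0.06 for both) and to the right at 6 h against 1 h (0.20).

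The family also lay below other genes of the same level at 1 h. All but 26 of the 188 genes lie within the range of 1 to 10 FPKM. There, 21 of 162 members (13.0%) were at least 1.5-fold lower, against 4.77% of all genes. Numbered Zfp genes with a mean of 1 to 2 FPKM had a median difference of -0.305 with 4 of 42 lower (9.52%). The 740 other genes of that range had a median of 0.01 with 4.86% lower. Members of 2 to 5 FPKM had a median of -0.24 with 11 of 66 lower (16.7%). The 1487 other genes of that range had a median of 0.02 with 4.57% lower. Members of 5 to 10 FPKM had a median of -0.24 with 6 of 54 lower (11.1%). The 1865 other genes of that range had a median of 0.01 with 4.18% lower. Among the 26 members above 10 FPKM none was 1.5-fold lower, beside 2.97% of other genes of 10 to 20 FPKM and 2.46% above 20. With shares this small, the count in 26 genes cannot set them apart. Their medians were -0.16 (10 to 20 FPKM) and -0.21 (above 20), against -0.01 and -0.05 for other genes.

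Zfp189 had the largest decrease at 1 h on the log2 scale. This gene with 16 fingers and no KRAB box, at chr4:49534089-49544417 (mm9), was at 3.22 (control), 0.777 (1 h) and 2.74 FPKM (6 h). The ratio of 1 h to control was 0.241, with an interval of 0.174 to 0.336 computed from the widths of the deposited bounds. The 1 h library alone was low, and the ratio of 6 h to control was 0.851 (0.662 to 1.09). Zfp691, with 7 fingers, at chr4:118842123-118846800, was at 4.19, 1.26 and 2.89 FPKM, a 1 h ratio of 0.300 (0.207 to 0.436). Here the 6 h library lay between the others, at 0.689 (0.524 to 0.906) of the control. Zfp189 and Zfp691 were the 2 genes at least 2-fold lower at 1 h on the log2(FPKM + 1) scale.

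The next largest differences were in genes of 1 to 4 FPKM. Zfp647, a KRAB gene, was at 2.14, 0.661 and 1.49 FPKM. Zfp235, also a KRAB gene, was at 1.47 (control), 0.330 (1 h) and 1.24 FPKM (6 h), and its 1 h ratio of 0.225 (0.145 to 0.349) was the smallest among the 21. Zfp629, with 19 fingers and no KRAB box, was at 3.10, 1.30 and 2.74 FPKM. In each of these the 1 h library was the lowest and the 6 h library was close to the control or between the others.

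Some of the genes past the 1.5-fold threshold were near 10 FPKM, where more fragments stand behind each value. The 1 h library was again the lowest. These genes were selected as lower than the control at 1 h, so they are no separate check. Their ratios were closer to 1 than those just given. With 1 FPKM added, a low gene needs a smaller ratio to pass, so ratios of selected genes cannot be compared across levels. Zfp251, a KRAB gene, was at 11.7 (control), 6.19 (1 h) and 11.1 FPKM (6 h), a 1 h ratio of 0.527 (0.456 to 0.609). Zfp553, with 12 fingers, was at 10.4, 5.46 and 9.45 FPKM, a ratio of 0.526 (0.440 to 0.628). Zfp768, with 10 fingers, was at 10.2, 5.74 and 9.72 FPKM, a ratio of 0.562 (0.462 to 0.683). In all 3 genes the 6 h value was within 10% of the control. Zfp932, a KRAB gene that represses endogenous retroviruses, was at 7.49, 3.82 and 6.89 FPKM, but 37.0% of its 50-base words occur in another gene's transcripts, so its fragments may be shared. Zfp747 has the same limit (34.4%), and the locus of Zfp142, which has the most fingers of the family (37), overlaps Plcd4.

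The remaining genes past 1.5-fold were Zfp790, Zfp324, Zfp933, Zfp747, Zfp787, Zfp142, Zfp334, Zfp574, Zfp397, Zfp287, Zfp866 and Zfp566, with 1 h ratios from 0.471 to 0.605. The last gene inside the threshold was Zfp566 at -0.586 on the log2 scale and the first outside was Zfp157 at -0.584. Taken as a group selected on this very difference, the 21 genes had median levels of 3.53 (control), 1.90 (1 h) and 3.02 FPKM (6 h); 12 had a KRAB box (1 of them with SCAN), 8 had fingers alone and 1 had SCAN alone.

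**Figure D3:**
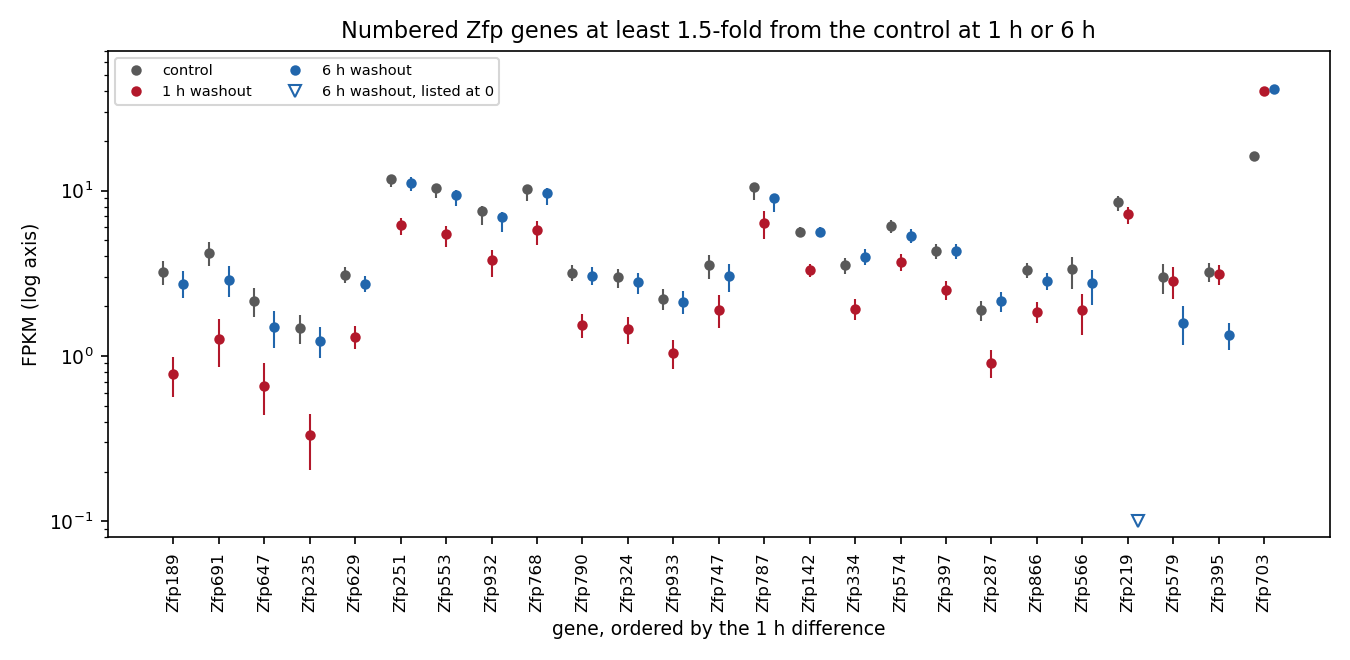
FPKM (log axis) per library, control, 1 h and 6 h, of the 25 numbered Zfp genes at least 1.5-fold from the control at 1 h or 6 h, ordered by the 1 h difference; vertical lines are the deposited 95% bounds, and the open triangle marks a gene listed at 0. In the 21 genes at the left, from Zfp189 to Zfp566, the 1 h point is the lowest of the 3, and Zfp703 at the right is about 2.5-fold above its control in both washout libraries.

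To show what lies upstream of such genes, the 250 bases before the annotated start are printed for 4 of the 21 lower genes and for Zfp948, a KRAB gene with a higher value at 1 h. The sequences are from RefSeq, build GRCm38.p6. Capitals mark matches, on either strand, of the CCAAT box (CCAAT), the GC box (GGGCGG), the RBPJ core (TGGGAA, the letters bound by the DNA-binding partner of NOTCH), the ETS core (CCGGAAG) or the first part of the cAMP response element (TGACGT). Zfp189 is on the + strand at chr4:49520926-49521175, Zfp691 on the - strand at chr4:119174196-119174445, Zfp553 on the + strand at chr7:127232811-127233060, Zfp768 on the - strand at chr7:127345315-127345564 and Zfp948 on the + strand at chr17:21566728-21566977.
Zfp189: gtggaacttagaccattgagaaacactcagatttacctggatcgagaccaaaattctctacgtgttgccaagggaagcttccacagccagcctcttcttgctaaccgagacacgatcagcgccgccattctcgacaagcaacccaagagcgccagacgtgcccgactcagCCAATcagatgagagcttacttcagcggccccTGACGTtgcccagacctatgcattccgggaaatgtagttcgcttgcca
Zfp691: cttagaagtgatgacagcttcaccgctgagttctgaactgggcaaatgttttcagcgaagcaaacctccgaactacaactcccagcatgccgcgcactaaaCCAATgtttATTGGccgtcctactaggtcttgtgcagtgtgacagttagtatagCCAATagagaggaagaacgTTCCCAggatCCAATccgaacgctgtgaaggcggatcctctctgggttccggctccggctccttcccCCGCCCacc
Zfp553: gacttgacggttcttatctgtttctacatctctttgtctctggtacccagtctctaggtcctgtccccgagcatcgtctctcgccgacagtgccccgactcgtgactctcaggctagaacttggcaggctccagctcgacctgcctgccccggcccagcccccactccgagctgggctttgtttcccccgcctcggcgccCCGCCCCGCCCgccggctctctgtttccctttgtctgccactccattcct
Zfp768: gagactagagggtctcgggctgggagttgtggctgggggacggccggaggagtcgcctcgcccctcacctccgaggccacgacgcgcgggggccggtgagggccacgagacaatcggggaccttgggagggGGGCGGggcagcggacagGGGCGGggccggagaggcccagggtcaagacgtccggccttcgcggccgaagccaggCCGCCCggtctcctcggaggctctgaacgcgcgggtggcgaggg
Zfp948: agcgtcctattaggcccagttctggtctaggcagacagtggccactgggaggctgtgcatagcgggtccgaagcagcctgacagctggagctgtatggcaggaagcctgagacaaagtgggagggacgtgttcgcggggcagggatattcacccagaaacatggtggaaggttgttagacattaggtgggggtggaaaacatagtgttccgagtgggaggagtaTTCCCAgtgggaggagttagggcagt

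The windows share no single layout. That of Zfp189 holds 1 CCAAT box and 1 TGACGT, that of Zfp691 holds 4 CCAAT boxes, 1 RBPJ core and 1 GC box, that of Zfp553 holds 2 GC boxes that overlap by 1 base, that of Zfp768 holds 3 GC boxes, and that of Zfp948 holds 1 RBPJ core. A promoter entry existed for 233 members, and the same letters were counted in all 27025 windows of this length. The CCAAT box was in 47.6% of the members' windows and in 34.5% of all, the GC box in 42.9% and 33.0%, the ETS core in 16.7% and 7.07%, and TGACGT in 10.7% and 6.52%. TATAAA was in 6.01% of the members' windows and in 13.0% of all. The RBPJ core was in 31.3% of the members' windows, 26.6% of those of members above the minimum and 21.5% of all. Among the 17 windows of genes lower at 1 h it was in 7 (41.2%), the CCAAT box in 8 (47.1%) and the GC box in 7 (41.2%). Among members above the minimum the CCAAT box was in 48.7% and the GC box in 46.1% of windows. Differences between these shares cannot be judged from 17 windows, and a link to NOTCH was not tested. For the sites of Hes and Hey repressors, CACGTG was in 8.58% and 6.04% and CACGCG in 6.87% and 7.79%. The median GC content of the windows was 54.0% for members and 52.0% for all. A match says only that these letters are in the window.

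Few members stood higher at 1 h than in the control. Zfp703, at chr8:28087808-28091934 (mm9), was at 16.1 (control), 40.1 (1 h) and 41.3 FPKM (6 h). Its ratios to the control were 2.49 (2.29 to 2.70) at 1 h and 2.56 (2.36 to 2.78) at 6 h. It was the only member past the threshold upwards at either time, and the 2 washout libraries differed by a ratio of 1.03 (0.961 to 1.10). Zfp503, the other NET family member in the table, was at 13.7, 18.5 and 10.4 FPKM. It was 1.35 times (1.23 to 1.49) the control at 1 h and 0.757 times (0.676 to 0.847) at 6 h, so the 2 relatives stood on opposite sides of the control at 6 h.

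The KRAB gene Zfp948 was at 6.93 (control), 10.8 (1 h) and 8.99 FPKM (6 h), a 1 h ratio of 1.56 (1.32 to 1.84) that falls just short of 1.5-fold once 1 FPKM is added, and passes it when the libraries are rescaled to a median ratio of 1. Zfp568, a KRAB repressor of a placental Igf2 transcript, was at 3.90, 5.71 and 4.29 FPKM, a ratio of 1.47 (1.31 to 1.64). Zfp292 was at 3.25, 4.69 and 2.77 FPKM, a ratio of 1.45 (1.30 to 1.60). These 3 genes were highest at 1 h, against the direction of most of the family. The remaining members of the 10 highest were Zfp868, Zfp710, Zfp934, Zfp715 and Zfp367, with log2 differences from 0.23 to 0.28.

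At 6 h the family was close to the control. The same control library serves both washout comparisons. Of 188 genes, 1 was at least 1.5-fold higher (0.532%, against 2.34% of all genes) and 3 were at least 1.5-fold lower (1.60%, against 2.77%). The median difference was -0.06 on the log2 scale, the same as for all genes to 2 decimals. Both shares are below the background.

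The 3 lower genes at 6 h were Zfp395, Zfp579 and Zfp219. Zfp395, whose human counterpart is a transcription factor bound to the huntingtin gene promoter, was at 3.24, 3.13 and 1.34 FPKM, a 6 h ratio of 0.413 (0.327 to 0.521). Zfp579, with 8 fingers, was at 3.02, 2.85 and 1.57 FPKM, a ratio of 0.521 (0.370 to 0.734). In both the control and 1 h values were alike and the 6 h library alone was low. Zfp219 was at 8.52 (control) and 7.22 FPKM (1 h) and was listed at 0 in the 6 h library. Its locus overlaps those of Arhgef40, at 19.4, 18.0 and 30.8 FPKM, and Tmem253, listed at 0 throughout, and the share of fragments given to each of overlapping models was not tested. Zfp608, a relative of Zfp609, was the first gene outside the threshold, at 2.36, 2.53 and 1.25 FPKM and a ratio of 0.529 (0.434 to 0.645).

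The largest higher values at 6 h after Zfp703 stayed within 1.5-fold on the log2 scale. Zfp959, a KRAB gene, was at 2.18, 2.54 and 3.26 FPKM, with a wide ratio interval of 1.09 to 2.05. Zfp593, whose yeast relative acts in export of the large ribosomal subunit, was at 14.9, 15.1 and 20.2 FPKM, a ratio of 1.36 (1.21 to 1.53), though 66.9% of its 50-base words are shared with an overlapping transcript. Zfp516, an activator of the brown fat gene Ucp1, was at 9.67, 7.46 and 13.1 FPKM, a ratio of 1.35 (1.25 to 1.46). Zfp330, a nucleolar protein, was at 23.0, 25.1 and 30.5 FPKM, a ratio of 1.33 (1.17 to 1.51). Of these, Zfp516 was lowest at 1 h and highest at 6 h, while Zfp593 stood apart only at 6 h.

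Between the 2 washout libraries, 23 genes had a 6 h value at least 1.5-fold above the 1 h value (12.2%, against 4.69% of all genes) and 5 were lower (2.66%, against 5.57%). The median difference was 0.20 for the family and -0.03 for all genes. This comparison shares the 1 h library with the first one, so its values are not a separate measurement of the low 1 h levels. Besides genes already described, those higher at 6 h included Zfp930, at 4.42 (control), 2.93 (1 h) and 5.69 FPKM (6 h), and Zfp217, a CtBP-binding oncoprotein, at 6.06, 3.93 and 6.90 FPKM. Both were lowest at 1 h. The 5 lower genes were Zfp219, Zfp292, Zfp395, Zfp503 and Zfp608. Over the 3 libraries, the 1 h library held the lowest value for 135 of the 188 genes (71.8%, against 36.7% of all genes), the 6 h library for 34 (18.1%, against 43.5%) and the control for 19 (10.1%, against 19.8%).

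The lower values at 1 h were found in genes with many fingers. None of the 39 genes with fewer than 5 matches of the finger pattern was 1.5-fold lower. The share over all genes was 3.50%, too small for a count of 0 to set 39 genes apart. The median log2 difference was 0.00 in the 7 genes with no match (2 of them, Zfp781 and Zfp935, KRAB genes), -0.09 in the 32 genes with 1 to 4 fingers, -0.31 in the 59 genes with 5 to 9, -0.37 in the 59 genes with 10 to 14 and -0.31 in the 30 genes with 15 or more. The counts of lower genes were 0, 0, 4 (6.78%), 11 (18.6%) and 6 (20.0%). Across 186 genes the Spearman correlation of the finger count with the 1 h difference was -0.35, while that with the 6 h difference was -0.03. It was -0.06 for transcript length and -0.04 for the length of the 3 prime untranslated region with the 1 h difference. The points share the same 3 libraries.

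**Figure D4:**
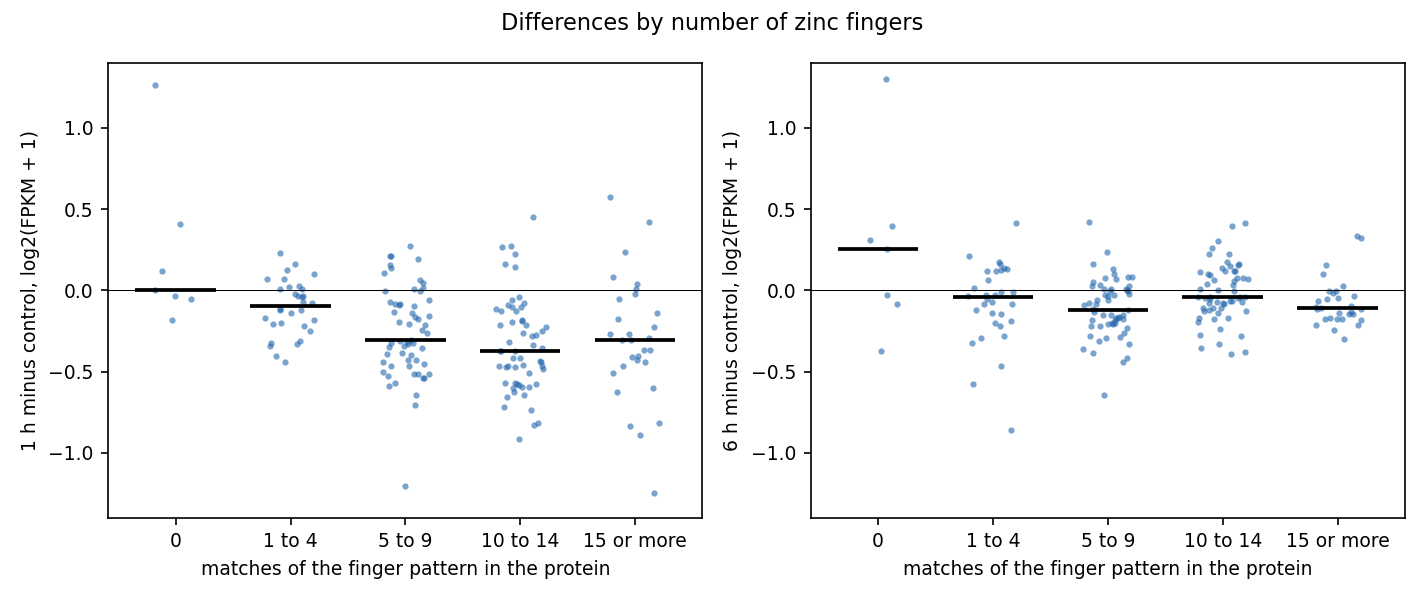
Difference from the control in log2(FPKM + 1) at 1 h (left) and 6 h (right) for the 187 numbered Zfp genes above the minimum with a protein model, by number of finger matches; points are genes, bars are medians, and Zfp219, listed at 0 at 6 h, is beyond the right panel's lower edge. At 1 h the medians run from 0.00 with no match to -0.37 with 10 to 14 fingers, and at 6 h the lowest median is -0.12.

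Genes with many fingers and other names were also lower at 1 h. The 136 other genes above the minimum with at least 5 fingers, which carry other names, had a median 1 h difference of -0.25 with 20 lower (14.7%), beside -0.32 and 21 of 148 (14.2%) for members with at least 5. The 140 other genes with 1 to 4 fingers had a median of -0.01, with 2 lower (1.43%) and 17 higher (12.1%). Over all genes, 3.50% were lower and 3.04% higher. No test of these differences is possible with 1 library a group.

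KRAB genes and genes with fingers alone both held lower values at 1 h. The 80 KRAB genes had a median difference of -0.31 with 11 lower (13.8%), and the 91 genes with fingers alone -0.16 with 8 lower (8.79%). Over all genes 3.50% were lower. The 5 SCAN genes had a median of -0.39 with 1 lower, and the 5 KRAB and SCAN genes -0.36 with 1 lower, too few genes for a share. The 5 genes above the minimum with neither a finger match nor another of these domains had a median of 0.12, with none lower and Zfp703 higher. Trim28, the KRAB corepressor, was at 104 (control), 88.0 (1 h) and 86.9 FPKM (6 h), and Setdb1 was at 13.7, 10.5 and 13.0 FPKM. Of 25 listed genes of the corepressor machinery, 23 were above the minimum, Dnmt3b was below it and Fam208a had no row. The 23 genes had a median 1 h difference of -0.08 and none was lower, beside 3.50% of all genes. One, Atf7ip, a partner of Setdb1, was higher at 1 h, at 6.14, 9.72 and 5.18 FPKM.

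Listed by function, the family's better-known genes mostly stayed within 1.5-fold, as did 9780 of all 10464 genes at 1 h. Over all genes 3.50% were lower and 3.04% higher at 1 h, and 2.77% were lower at 6 h. With shares this small, counts of 0 or 1 in this list and those below cannot set the listed genes apart. Listed symbols were looked up as written, here and in the lists below, so a gene held under another symbol counts as not above the minimum. Of 8 listed symbols of activators and promoter factors, 6 were above the minimum, with a median 1 h difference of -0.19. None was past the threshold at 1 h, and at 6 h 1 was lower, Zfp219, which was listed at 0 there. Zfp143, which drives promoters of small nuclear RNA genes, was at 6.81, 5.97 and 6.85 FPKM, and Zfp281, a factor of GC-rich promoters, at 7.55, 8.56 and 8.36 FPKM. Neither differed from the control by as much as 1.5-fold. Zfp335, which associates with a histone H3 lysine 4 methyltransferase complex, was at 11.2, 7.97 and 8.29 FPKM and so was low in both washout libraries, as was Zfp384, at 25.0, 18.8 and 20.3 FPKM.

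Of 13 listed RNA, ribosome, spindle and ubiquitin or SUMO factors, 12 were above the minimum, with a median 1 h difference of -0.08 and none past the threshold. Zfp326, a subunit of a complex that links splicing to elongation, was at 14.0, 12.2 and 16.3 FPKM. Zfp346, a binder of double-stranded RNA, was at 9.53, 8.93 and 9.31 FPKM, and Zfp451, a SUMO ligase, at 6.65, 5.38 and 5.64 FPKM. These levels lay within 1.5-fold of each other across libraries for each gene.

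Of 12 listed symbols of mesenchymal, muscle and fat fate factors, 8 were found above the minimum. These 8 had a median 1 h difference of -0.02, with 1 higher (Zfp703) and none lower. Zfp423, a preadipocyte factor, was at or below 0.0560 FPKM in every library, and its paralogue Zfp521 at or below 0.144 FPKM. Zfp467 was listed at 0. Zfp637 was at 19.8, 17.6 and 16.1 FPKM and Zfp609 at 6.65, 6.05 and 6.59 FPKM.

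Of 5 listed KRAB repressors of imprints and retroelements, 4 were above the minimum and 1, Zfp932, was lower at 1 h. Zfp445, which maintains methylation of imprinted regions, was at 9.75, 6.81 and 10.0 FPKM, a 1 h ratio of 0.699 (0.628 to 0.779). Zfp809, which silences murine leukemia provirus in embryonic cells, was at 5.67, 5.70 and 4.88 FPKM. The 2 genes thus differed at 1 h, the first below and the second level with the control. In the Zmynd8 complex, Zfp687 was at 9.03, 5.75 and 6.69 FPKM and Zfp592 at 5.05, 4.48 and 5.16 FPKM, beside 16.9, 20.8 and 16.7 FPKM for Zmynd8 itself. Zfp687 had a log2 difference of -0.57 at 1 h, just outside the threshold.

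By position, 116 of the 286 genes lay in 19 clusters of at least 3 members with gaps of at most 250 kb. Clustered genes had a median level of 1.31 FPKM and the other 170 genes 2.94 FPKM. At 1 h, 10 of the 67 clustered genes above the minimum were lower (14.9%), with a median of -0.32. Of the 121 others 11 were lower (9.09%), with a median of -0.18. The share was 11.2% for the family and 3.50% for all genes. Chromosome 7 held 70 of the 286 genes and 10 of the 21 lower ones, which is 23.8% of its 42 genes above the minimum. Higher shares stood on chromosomes with few members, namely 3 of 7 (42.9%) on chromosome 4, 1 of 3 (33.3%) on chromosome 1 and 2 of 7 (28.6%) on chromosome 15. Chromosome 17 held 29 genes, 22 of them above the minimum, and none was 1.5-fold lower, with a median of -0.28.

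The cluster at chr7:134376957-134757947 (mm9) was the one with the most genes lower at 1 h. It holds Zfp553, Zfp771, Zfp768, Zfp747, Zfp764, Zfp688, Zfp689 and Zfp629, all above the minimum. Of these 8, 4 were lower, beside 3.50% of all genes, with a median difference of -0.56. Zfp771 was at 23.5, 17.2 and 17.1 FPKM and was low at 6 h too, while Zfp689 was at 1.84, 1.67 and 1.63 FPKM. The 9 other genes above the minimum inside the same span had a median of -0.18, against -0.025 for all genes. None was 1.5-fold lower, but at a share of 3.50% a count of 0 cannot set 9 genes apart. Among them Rnf40, a histone H2B ubiquitin ligase subunit, was at 18.6, 14.4 and 17.0 FPKM. At 6 h the median difference of the 8 genes was -0.15.

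No other cluster held more than 2 genes lower at 1 h. The largest, at chr13:67139530-67927937, holds 15 KRAB genes with a median of 0.395 FPKM, of which 3 were above the minimum and none was past 1.5-fold. In the chromosome 17 cluster at chr17:21520712-22593656, 8 of 11 KRAB genes were above the minimum, and their 1 h differences ran from -0.51 to 0.58, the highest being that of Zfp948. Neighbours in a cluster thus lay on both sides of the control.

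Near-identical copies limit some single values. In 33 members (22 above the minimum) more than 20% of the 50-base words occur in transcripts of another gene, and 17 members (11 above the minimum) overlap another locus. Zfp935, Zfp781, Zfp433 and Zfp960 share from 82.7% to all of their words, so their levels are uncertain. Whether the counting used strand is unknown here.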

How the data were processed

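PolyA RNA from 3 C2C12 cultures was sequenced, 1 library per group. The authors deposited FPKM values with 95% bounds for each gene; per the submitters' processing notes they used TopHat, Cufflinks and FastQC with mouse build mm9. The sources used here give no version, setting, strand or annotation. Because FPKM is relative to library size and transcript length, abundant genes and overlapping models can shift a value.

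Rows of a symbol were summed. Genes averaging 1 FPKM or more were compared by log2(FPKM + 1), with a threshold of 1.5-fold, in Python 3.11.15 with pandas 2.3.3. With 1 library per group no test was made. Ratio intervals use the widths of the deposited bounds, which cover estimation within a library only; of the 188 members above the minimum, 4, 3 and 3 had a value outside its own bounds in the control, 1 h and 6 h libraries. Counting was tested on simulated data.

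Proteins were translated from GENCODE vM21 transcripts; domains were matched by spacing and consensus letters, with up to 4 mismatches for KRAB and SCAN. No protein table from RefSeq was used. Promoter windows are from RefSeq, GRCm38.p6. Locus positions are mm9, as deposited, counted from 1.

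The members and the gene lists were chosen with earlier results of these data known. Genes named in the text are the 12 highest in level, the 10 highest and 10 lowest at 1 h and at 6 h, those at least 2-fold apart, members of the function lists, genes at 0 in 1 library only, and up to 4 per cluster or domain class; genes outside this rule, such as those nearest the threshold or sharing sequence, were named after their values were seen. Alternatives were other pseudocounts, filters, scalings, thresholds and row rules, and 3 added after seeing the data.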

Additional observations from a re-analysis of the deposited data

How the results depend on the processing

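No paired analysis was possible because each group has 1 library; for the same reason no library could be left out. No median reversed its direction under any alternative run. For single genes past 1.5-fold a reversal was hardly possible, because a pseudocount cannot change a sign and the rescalings were small. Their lack of reversals is therefore no support. At 1 h, the count of lower genes was 47 (25.0%, against 5.42% of all genes) with a pseudocount of 0.1, 6 (7.50%, against 3.04%) with a minimum of 5 FPKM and 2 (1.06%, against 0.831%) at 2-fold. With a pseudocount of 5 it was 0, below the 1.31% of all genes. The count of higher genes was 2 (1.06%) with a pseudocount of 0.1 (4.23% of all genes) and under both rescalings (3.29% and 3.27%). It was 0 within 1 to 10 FPKM (3.57% of all genes) or with at least 5 fingers (3.04%). The median was -0.129 with a pseudocount of 5. At 6 h, the count lower was 1 with a pseudocount of 5 (0.532%, against 1.10% of all genes). It was also 1 with a minimum of 5 FPKM (1.25%, against 2.37%) and at 2-fold (0.532%, against 0.631%). The count higher was 0 within 1 to 10 FPKM (2.56% of all genes) or with at least 5 fingers (2.34%). The 6 h median was -0.0339 with a pseudocount of 5, -0.0298 with no filter, -0.0132 when rescaled to the median ratio and -0.0354 when rescaled to the upper quartile. For 6 h against 1 h, the count higher was 0 with a pseudocount of 5, below the 2.23% of all genes. It was 6 (7.50%, against 4.26%) with a minimum of 5 FPKM and 1 (0.532%, against 1.47%) at 2-fold. The count lower was 2 with a pseudocount of 5 (1.06%, against 2.41%) and with a minimum of 5 FPKM (2.50%, against 4.82%). It was also 2 with at least 5 fingers (1.35%, against 5.56%), and 1 at 2-fold (0.532%, against 1.70%). The median was 0.103 (pseudocount 5) and 0.131 (no filter). A higher pseudocount shrinks every difference and a stricter filter leaves fewer genes; the cause of the other changes was not tested. The median ratio to the control, which that rescaling removes, was -0.03 at 1 h and -0.06 at 6 h on the log2 scale. Leaving out members with shared sequence or overlapping loci, and the restriction to at least 5 fingers, were chosen after seeing the data. Of the single-gene values, 323 stayed and 55 moved. The series-wide values equal the per-library values for all 23298 symbols, so the alternative that used them could move nothing. Depth limits genes near 1 FPKM most.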

Other observations

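Relatives outside the 3-digit symbols showed the following values at 1 h against the control. Over all genes 3.50% were lower and 3.04% higher. Of 47 Zfp genes with 1 or 2 digits, 38 were above the minimum, with a median log2 difference of -0.42. Of these, 10 were lower (26.3%) and 1 was higher (2.63%). Zfp7 was at 6.37 (control), 2.60 (1 h) and 6.22 FPKM (6 h), and Zfp46 at 6.08, 3.03 and 6.45 FPKM. The 1 higher gene was Zfp36, a CCCH protein that destabilises AU-rich mRNAs rather than a C2H2 protein, at 14.0, 103 and 12.5 FPKM. The 30 Zbtb genes above the minimum had a median of -0.23, with 2 lower (6.67%) and 1 higher (3.33%). The higher gene was Zbtb10, at 2.46, 5.03 and 3.65 FPKM. The 13 Zscan and Zkscan genes had a median of -0.19, with 1 lower (7.69%), Zscan20, at 1.86, 0.907 and 1.82 FPKM. The 11 Klf genes above the minimum, C2H2 activators and repressors with few fingers, had a median of 0.69 with 7 higher (63.6%) and none lower. The number of genes in each family is small and each group is 1 library.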
